A study of Homo sapiens with 6 samples.

Results

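The 10 genes described here encode enzymes of glycolysis: HK1, HK2, GPI, PFKL, PFKP, ALDOA, GAPDH, PGK1, ENO1 and LDHA. They were found by gene symbol among the 58233 genes listed in each of 6 libraries, and each gene's value is the sum over its transcripts. All 10 were found, and 9 passed the filter of a mean of at least 1 FPKM that defined the 12853 tested genes; HK2 did not. FPKM are fragments per kilobase of transcript, normalised to the sequencing depth of the library. The libraries came from cells labelled Huh7, a human hepatocellular carcinoma line, transfected either with a plasmid for overexpression of TP53TG1, a long noncoding RNA gene, or with a control plasmid, with 3 libraries in each group. The vector, its promoter, the plasmid dose and the time after transfection were not given in the sources used here. Nor do the labels say whether replicates were separate cultures, so the spread behind every p-value may be technical.

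Glycolysis splits glucose into pyruvate in the cytosol. Hexokinase, phosphoglucose isomerase, phosphofructokinase and aldolase prepare and cleave the sugar, with ATP spent by hexokinase and phosphofructokinase. The enzymes from GAPDH onward recover ATP and NADH. Lactate dehydrogenase then turns pyruvate into lactate and restores NAD+. Several steps have isozymes from separate genes: for pyruvate kinase, adult hepatocytes mainly use the liver gene PKLR, whereas many hepatocellular carcinomas express PKM, and many also express HK2.

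TP53TG1 itself stood at 10.6, 5.25 and 6.15 FPKM in control replicates 1, 2 and 3 and at 69.8, 134 and 70.5 FPKM in TP53TG1 replicates 1, 2 and 3, so every library agreed in direction with its label. Its means differed by a ratio of 12.5, and even so it missed the threshold in the fit without scaling (log2 fold change 3.46, SE 0.381, limma adjusted p = 0.0573). It passed after median-of-ratios scaling (limma adjusted p = 0.039). With the replicate number as a block it passed without scaling (limma adjusted p = 8.97e-22) and with it (limma adjusted p = 0.00932). In the unscaled block fit limma set each gene's variance by the trend over genes alone. The p of 8.97e-22 thus does not measure the spread of TP53TG1 between its own libraries. Total FPKM ran from 599081 (TP53TG1 replicate 1) to 890541 (control replicate 1). Read counts were not used here, so the depth behind each value is unknown and no counting interval is given. Both libraries numbered 1 stood apart. The mean length of protein-coding transcripts weighted by FPKM was 1311 and 1228 nt in them, against 1652 to 1710 nt in the other 4. Small structured RNAs held 6.61% of all FPKM in TP53TG1 replicate 1, against 0.257% to 1.53% elsewhere. Of 9 hepatocyte markers, 6 reached a mean of 1 FPKM, with FGB at 7.01 to 28.6 FPKM, HNF4A at 2.57 to 15.0 FPKM and TF at 3.51 to 10.2 FPKM. AFP, APOB and SERPINA1 were low, at 0.63 to 3.49, 0.2 to 2.41 and 0.47 to 1.92 FPKM. The other 3 markers did not reach that mean: ALB ran from 0.53 to 1.22 FPKM, APOA1 from 0.18 to 0.43 FPKM and TTR from 0 to 0.17 FPKM. The 9 markers summed to 39.3 to 60.1 FPKM in controls and 17.4 to 51.9 FPKM with TP53TG1. The intestinal marker KRT20 ran from 51.1 to 171 FPKM, and 4 of 5 intestinal markers reached a mean of 1 FPKM. The sum of the intestinal list was lower with TP53TG1 without overlap in unscaled FPKM. It ran from 151.5 to 319 FPKM in controls and from 85.2 to 136 FPKM with TP53TG1. The marker sums were not compared after scaling, so this gap may not hold on that scale. Whether the cells are Huh7, as labelled, was not tested. Of 6 fibroblast markers 5 reached a mean of 1 FPKM. The sum of the list was higher with TP53TG1 without overlap, at 19.1 to 21.4 FPKM in controls and 22.5 to 32.6 FPKM with TP53TG1. COL1A1 stood at 10.9 FPKM in TP53TG1 replicate 1, against 1.81 to 3.19 FPKM elsewhere, and LUM was lowest in that library, at 9.99 FPKM. COL1A2, COL3A1, DCN and LUM each overlapped between the groups. Among single tested genes, 0.428% were higher and 13.3% lower with TP53TG1 without overlap. Of 5 leukocyte markers 2 reached a mean of 1 FPKM, with sums of 33.1 to 64.8 FPKM in controls and 47.1 to 65.8 FPKM with TP53TG1. Nearly all of it was CD68 (32.4 to 65.2 FPKM), while PTPRC did not exceed 0.13 FPKM. Of 4 endothelial markers 2 did, PECAM1 at up to 5.72 FPKM and KDR at up to 6.4 FPKM, while CDH5 did not exceed 0.03 FPKM. Of 5 erythroid markers 0 did. The part of these measures in the results on glycolytic genes was not tested.

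Promoter sequence of 3 of the genes is shown because they stand for different patterns: HK2 was almost silent, PGK1 was abundant, and LDHA transcripts from its separate start sites took different shares in different libraries. The sequences are from RefSeq (GRCh38.p14), run 5′ to 3′ on the plus strand, which is the strand of all 3 genes, and stop before annotated exons. Capitals mark CACGTG, the E-box palindrome that MYC and related factors can bind, and elsewhere ACGTG on either strand. ACGTG is a form of the core of the element that HIF can bind, and other forms of that core were not searched.
HK2, chr2:74834920-74835169: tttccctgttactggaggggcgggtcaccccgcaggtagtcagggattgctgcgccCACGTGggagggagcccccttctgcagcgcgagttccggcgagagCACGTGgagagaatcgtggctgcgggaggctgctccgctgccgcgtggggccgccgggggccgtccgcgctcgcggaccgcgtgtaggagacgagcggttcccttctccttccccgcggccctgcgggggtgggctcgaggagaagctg
PGK1, chrX:78103998-78104173: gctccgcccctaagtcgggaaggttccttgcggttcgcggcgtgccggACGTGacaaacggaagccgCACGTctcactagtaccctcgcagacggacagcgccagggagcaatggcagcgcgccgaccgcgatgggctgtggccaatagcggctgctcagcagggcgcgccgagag
LDHA upstream start, chr11:18394313-18394387: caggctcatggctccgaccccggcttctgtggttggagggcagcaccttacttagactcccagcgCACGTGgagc
LDHA downstream start, chr11:18396101-18396265: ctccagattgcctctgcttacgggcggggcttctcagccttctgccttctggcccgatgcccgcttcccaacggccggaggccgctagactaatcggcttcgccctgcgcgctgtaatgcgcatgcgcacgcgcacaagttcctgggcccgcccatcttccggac

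The HK2 stretch held 2 CACGTG sites and the LDHA upstream stretch held 1, with a second in the remainder of its window. The PGK1 stretch held 2 matches of ACGTG and no CACGTG, and the LDHA downstream stretch held neither motif. All 10 genes matched the RefSeq promoter table, in 23 windows. In the 250 bases before the start site nearest to each gene's main coding transcript, 3 of the 10 held CACGTG and 6 held ACGTG, searched on both strands and with ACGTG also counted inside CACGTG. Among all 35116 promoters of the same length the shares were 6.34% and 18.5%. These letters are a description of the windows and do not show that a factor binds there.

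The members spanned a wide range of abundance, and GAPDH led in every library. By mean FPKM over the 6 libraries (± SD, n = 6) the order was GAPDH at 6341 ± 1420, ENO1 at 2015 ± 214, ALDOA at 1299 ± 215, PGK1 at 550.3 ± 142, LDHA at 498 ± 106, GPI at 362 ± 67.5, PFKP at 105 ± 21.9, PFKL at 71.8 ± 9.29, HK1 at 49.7 ± 17.1 and HK2 at 0.23 ± 0.0802 FPKM. Among these 10 members, those of the energy-recovering steps and aldolase thus stood above those that commit glucose to the pathway. This does not hold for the whole pathway. PGAM1, a later step outside the members, ran from 76.9 to 154 FPKM and overlapped PFKP, at 63.05 to 122.4 FPKM. PGK1 and LDHA did not differ beyond their spread, since PGK1 was the higher in 5 of 6 libraries. PFKL and HK1 overlapped in the same way, with PFKL higher in 5 of 6. LDHA and GPI overlapped in range, as did PFKP and PFKL, but LDHA was above GPI and PFKP above PFKL in all 6 libraries. No other neighbours overlapped in range. These sums include forms annotated as noncoding, and an order by coding forms alone was not made. PGK1-201, the only coding form of PGK1 listed, averaged 235 FPKM in the controls and 244 FPKM with TP53TG1. The most abundant ALDOA form, ALDOA-214, is annotated as a retained intron and averaged 459 FPKM in the controls and 543 FPKM with TP53TG1. In bulk RNA, fewer cells that hold a transcript and less RNA per cell cannot be told apart.

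**Figure D1:**
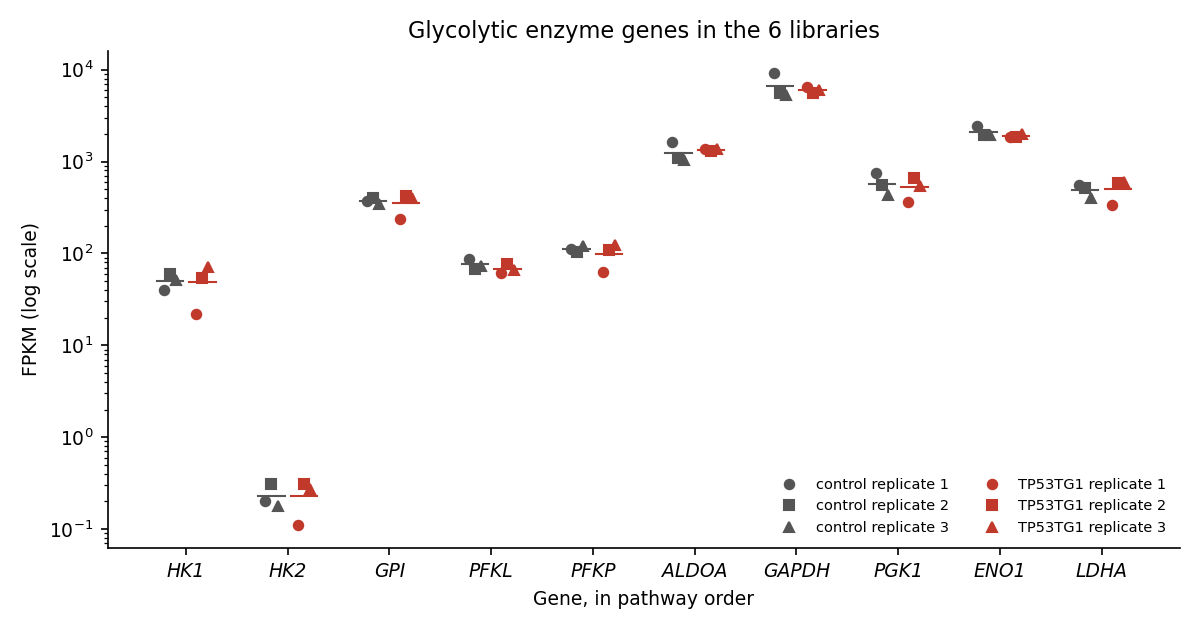
FPKM of the 10 genes (vertical axis, log scale) in 3 control (grey) and 3 TP53TG1 (red) libraries, with symbols for the replicate number and bars for the group means. HK2 lies at 0.11 to 0.31 FPKM, far below the other 9 genes, and TP53TG1 replicate 1 (red circle) is the lowest library for HK1, HK2, GPI, PFKL, PFKP, PGK1, ENO1 and LDHA.

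The comparison of the TP53TG1 libraries with the controls asks whether the level of these transcripts moved with the plasmid. None of the 9 tested genes passed an adjusted p of 0.05 in limma, where 0.00778% of all tested genes did, and 0 had an unadjusted p under 0.05, where 2.35% did. Since TP53TG1 itself missed the threshold in this fit, a missed threshold does not show that a gene was unchanged. The FPKM of the groups overlapped for all 10, while 0.428% of all tested genes were higher and 13.3% lower with TP53TG1 without overlap. Group means differed by ratios between 0.877 for PFKP and 1.08 for ALDOA. Values follow the order of the pathway, in control replicates 1, 2 and 3 and then in TP53TG1 replicates 1, 2 and 3. Fold changes are on the log2(FPKM + 1) scale from limma, TP53TG1 minus control, with p-values adjusted over all 12853 tested genes by the Benjamini-Hochberg method.

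Hexokinase phosphorylates glucose and so traps it in the cell. HK1, the hexokinase of most tissues (ENSG00000156515, chromosome 10, 69269984 to 69401884, GRCh38), stood at 40.0, 59.8 and 50.9 FPKM in the controls and at 21.9, 54.2 and 71.5 FPKM with TP53TG1. The TP53TG1 group held both the lowest and the highest library, and the controls lay between them. Its log2 fold change was -0.16 (SE 0.431, limma adjusted p = 0.836), the widest error among the members. HK2, the isozyme induced in many tumours (ENSG00000159399, chromosome 2, 74833981 to 74893359), was close to silent in both groups, at 0.2, 0.31 and 0.18 FPKM in the controls and 0.11, 0.31 and 0.27 FPKM with TP53TG1. Both groups averaged 0.23 FPKM (SD 0.07 in controls and 0.106 with TP53TG1, n = 3 each). The share of HK2 in the sum of HK1 and HK2 was 0.455 ± 0.0893% in the controls and 0.481 ± 0.0977% with TP53TG1 (SD, n = 3 each). That difference of 0.026 percentage points was within the spread (exact two-sided permutation p = 0.6, 0.8 when adjusted over the 2 shares tested).

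GPI, the isomerase that makes fructose 6-phosphate (ENSG00000105220, chromosome 19, 34359480 to 34402413), stood at 368, 399 and 349 FPKM in the controls and at 235, 417 and 405.5 FPKM with TP53TG1. A single library, TP53TG1 replicate 1, lay below the rest, and the other 2 with TP53TG1 were the highest of the 6. The log2 fold change was -0.12 (SE 0.281, limma adjusted p = 0.813).

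Phosphofructokinase makes the committing step and is the main point of control of the pathway. PFKL, its liver type (ENSG00000141959, chromosome 21, 44300051 to 44327376), stood at 87.4, 67.4 and 72.7 FPKM in the controls and at 60.9, 76.2 and 66.3 FPKM with TP53TG1. PFKP, the platelet type (ENSG00000067057, chromosome 10, 3066333 to 3137712), stood at 110.4, 104.8 and 121.8 FPKM and at 63.0, 109.9 and 122.4 FPKM. For PFKP the 2 TP53TG1 libraries other than replicate 1 fell inside the control range or just above it. The log2 fold changes were -0.16 for PFKL (SE 0.254, limma adjusted p = 0.765) and -0.24 for PFKP (SE 0.304, limma adjusted p = 0.748). PFKP made up 59.8 ± 3.53% of PFKP plus PFKL in the controls and 58.3 ± 7.04% with TP53TG1 (SD, n = 3 each; exact two-sided permutation p = 0.8, also 0.8 when adjusted over the 2 shares). The difference of -1.49 percentage points turned to 0.235 without the libraries numbered 1.

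ALDOA cleaves fructose 1,6-bisphosphate (ENSG00000149925, chromosome 16, 30064164 to 30070457). It stood at 1627, 1098 and 1029 FPKM in the controls and at 1356, 1296 and 1387 FPKM with TP53TG1. Control replicate 1 was the highest library and the other controls the lowest, so that the TP53TG1 libraries lay between them. ALDOA had the largest positive log2 fold change of the members, at 0.14 (SE 0.248, limma adjusted p = 0.783).

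GAPDH oxidises glyceraldehyde 3-phosphate and yields NADH (ENSG00000111640, chromosome 12, 6533927 to 6538374). It stood at 9124, 5616 and 5322 FPKM in the controls and at 6433, 5530 and 6022 FPKM with TP53TG1. The lead of control replicate 1 set the control SD at 2115 FPKM, against 452 FPKM with TP53TG1 (n = 3 each). The log2 fold change was -0.12 (SE 0.266, limma adjusted p = 0.813). GAPDH is often used as a reference gene, and its highest library held 1.71 times the FPKM of its lowest.

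PGK1, which makes the first ATP of the pathway (ENSG00000102144, chromosome X, 77910739 to 78129296), stood at 742, 558 and 430.0 FPKM in the controls and at 358, 666 and 548 FPKM with TP53TG1. ENO1, the enolase of most tissues (ENSG00000074800, chromosome 1, 8861000 to 8879250, minus strand), stood at 2439, 1969 and 1956 FPKM and at 1866, 1872 and 1988 FPKM. ENO1 was the steadiest member of the recovering steps, and control replicate 1 alone stood above the other 5 libraries. The log2 fold changes were -0.15 for PGK1 (SE 0.313, limma adjusted p = 0.802) and -0.15 for ENO1 (SE 0.216, limma adjusted p = 0.758).

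LDHA encodes the muscle-type subunit of lactate dehydrogenase (ENSG00000134333, chromosome 11, 18394388 to 18408425). It stood at 556, 517 and 399 FPKM in the controls and at 338, 580 and 600.5 FPKM with TP53TG1. As for GPI, TP53TG1 replicate 1 was the lowest of the 6 libraries and the other 2 with TP53TG1 were the highest. The log2 fold change was 0.01 (SE 0.293, limma adjusted p = 0.982).

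The sign of the members' fold changes depended on how libraries were scaled. Without scaling, 7 of 9 were below 0, with a median of -0.15, but the median of all tested genes was lower still, at -0.35, and 9 of 9 members lay above it. Only 8.57% of all tested genes were above 0. Median-of-ratios scaling divides each library by the median ratio of its genes to their geometric mean over libraries, and its factors were 1.12, 1.19 and 1.19 in control replicates 1, 2 and 3 and 0.615, 1.12 and 0.994 in TP53TG1 replicates 1, 2 and 3. After it all 9 members were above 0, as were 48.7% of all tested genes, and the medians were 0.26 for the members and -0.01 for all genes. None of the 9 passed (limma adjusted p = 1.0 for each, with 0.0156% of all genes called), and 0 had an unadjusted p under 0.05, where 1.13% of all genes did.

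ALDOA had the highest scaled fold change of the members, at 0.54 (SE 0.363), followed by LDHA at 0.41 (SE 0.251). The scaled FPKM of ALDOA were 1456, 923 and 867 in the controls and 2204, 1160.0 and 1395 with TP53TG1, so the groups overlapped. They did not overlap for GPI, at 329, 335.5 and 294 in the controls and 381, 374 and 408 with TP53TG1. For LDHA they were 497, 435 and 336 in the controls and 549, 519 and 604 with TP53TG1, again without overlap. Such a gap in the higher direction was seen in 1.89% of all tested genes, and in the lower direction in 2.18%. Exact two-sided permutation tests gave p = 0.1 for GPI and LDHA, the smallest that 3 against 3 libraries allow. Any gene without overlap gets this p, so the test adds nothing to the gap itself.

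**Figure D2:**
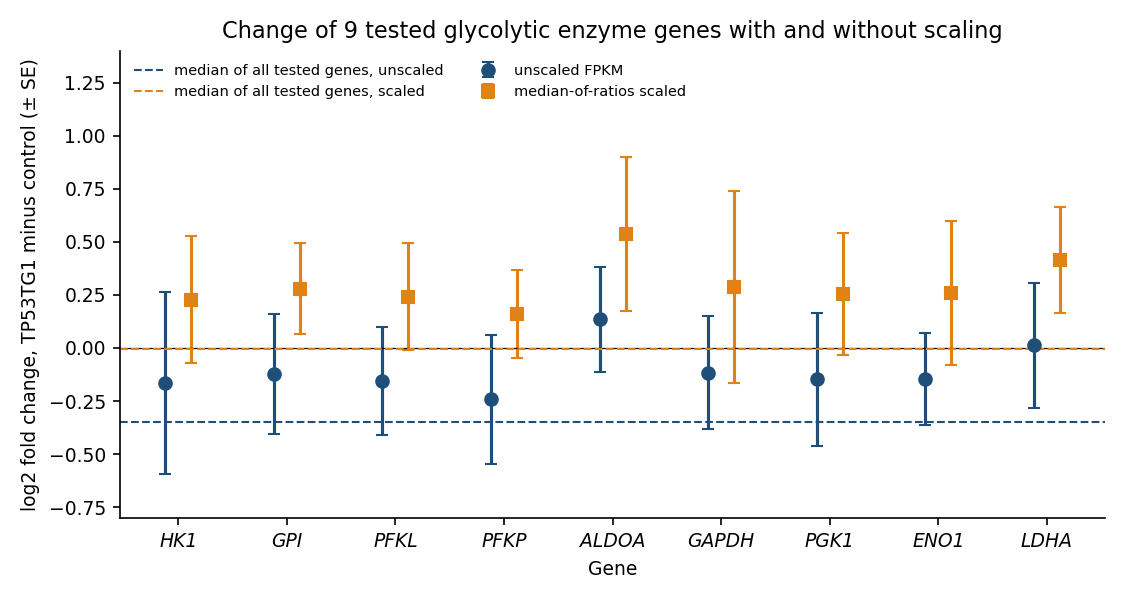
Log2 fold change of the 9 tested genes (vertical axis, TP53TG1 minus control, ± SE, n = 3 libraries per group) on unscaled FPKM (blue circles) and after median-of-ratios scaling (orange squares), with dashed lines at the medians of all tested genes. Scaling moves the members from a median of -0.15 to 0.26 and the median of all genes from -0.35 to -0.01.

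For most members the sign of the unscaled values changed when the 2 libraries numbered 1 were left out. Between the libraries numbered 1, all 10 genes were lower with TP53TG1, at ratios of TP53TG1 to control from 0.483 for PGK1 to 0.833 for ALDOA. Between those numbered 2 the ratios ran from 0.905 for HK1 to 1.19 for PGK1. Between those numbered 3 they ran from 0.912 for PFKL to 1.51 for LDHA, with HK2 at 1.5 on values near 0. ALDOA was the higher with TP53TG1 at 1.18 and 1.35 in these pairs, and LDHA at 1.12 and 1.51. Without both libraries numbered 1, the median of the 9 members was 0.14, 8 of 9 were above 0, and the median of all genes was -0.16. None passed in that fit, where 0.00778% of all genes did (limma adjusted p = 0.671 for ALDOA and for LDHA). Leaving out TP53TG1 replicate 1 alone moved the members' median to 0.10, and leaving out control replicate 1 alone moved it to -0.04.

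Scaling brought the 3 pairs closer. The scaled ratios were 0.878 (PGK1) to 1.51 (ALDOA) for the libraries numbered 1, 0.965 (HK1) to 1.27 (PGK1) for those numbered 2 and 1.09 (PFKL) to 1.80 (LDHA) for those numbered 3. GPI, PFKL, PFKP, ALDOA, GAPDH, ENO1 and LDHA were above 1 in all 3 pairs, and HK1, HK2 and PGK1 were not. Some of these ratios lay close to 1, such as PFKP at 1.04 for the libraries numbered 1 and ENO1 at 1.01 and GAPDH at 1.05 for those numbered 2. The share of all tested genes above 1 in all 3 pairs was not counted, so this cannot be read as a trait of the members. With the replicate number as a block and scaling together, ALDOA had an unadjusted p of 0.00936 (log2 fold change 0.54, SE 0.144) and no other member was under 0.05, where 5.29% of all genes were. Its limma adjusted p was 0.766, and 0 members passed, where 0.0469% of all genes did. The block without scaling called 192 genes (1.49%) and 0 members (limma adjusted p from 0.616 for PFKP to 0.975 for LDHA). Variances in that fit came from the trend over genes alone, so its calls and p-values do not measure a gene's own spread.

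**Figure D3:**
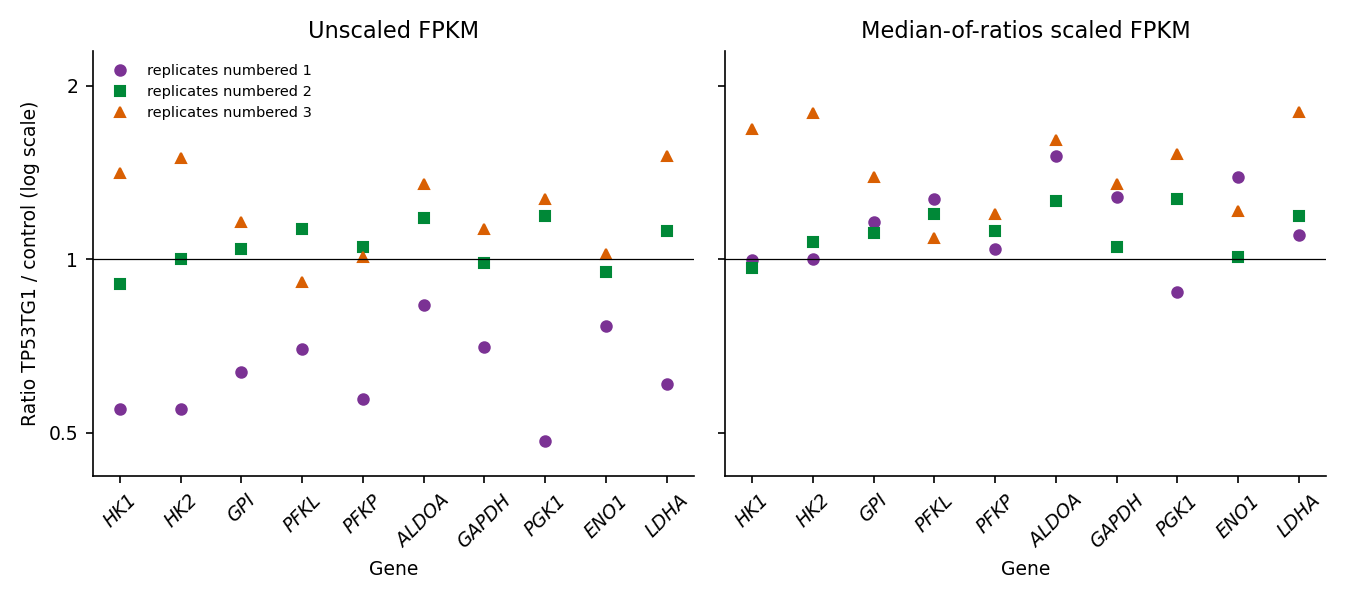
Ratio of TP53TG1 to control FPKM (vertical axis, log scale) between libraries of the same replicate number, unscaled on the left and after median-of-ratios scaling on the right. Unscaled, the libraries numbered 1 (purple) lie below 1 for all 10 genes, from 0.483 to 0.833, and after scaling they lie between 0.878 and 1.51.

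As a share of all FPKM, a measure that does not move with the total of a library, the 10 genes together held 1.69%, 1.52% and 1.46% in control replicates 1, 2 and 3 and 1.79%, 1.71% and 1.79% in TP53TG1 replicates 1, 2 and 3. The groups did not overlap. GAPDH made up most of the sum, at 0.798% to 1.02% in the controls and 0.890% to 1.07% with TP53TG1, and overlapped. ALDOA held 0.183%, 0.161% and 0.154% in the controls against 0.226%, 0.209% and 0.222% with TP53TG1, with no overlap. ENO1 also did not overlap, at 0.274%, 0.289% and 0.293% against 0.311%, 0.301% and 0.318%. Shares did not overlap in the higher direction for 1.3% of all tested genes and in the lower for 2.88%. In limma on FPKM rescaled to the same total, none of the 9 tested members passed (adjusted p = 1.0 for ALDOA and ENO1), where 0.00726% of all genes did. Mitochondrial mRNAs, which take part of the same total, held 10.3% to 14.6% in the controls and 11.2% to 13.3% with TP53TG1.

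Isozymes of the same steps were compared by their share of a step, taken over the genes named in the plot of isozyme FPKM. At the hexokinase step HK1 shared the FPKM with HKDC1, a hexokinase gene next to HK1 on chromosome 10. HK1 held 33.8% to 56.9% and HKDC1 42.9% to 66.1% over the 6 libraries, while HK2 held 0.12% to 0.258%. HK3 was listed at 0 in all but TP53TG1 replicate 2, at 0.02 FPKM. HKDC1 stood at 42.4, 76.5 and 99.5 FPKM in the controls and at 24.8, 65.7 and 53.9 FPKM with TP53TG1, with overlap. Its log2 fold change was -0.61 (SE 0.442, limma adjusted p = 0.748), -0.22 after scaling and -0.20 without TP53TG1 replicate 1.

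PFKP was the leading phosphofructokinase gene, with 45.6% to 56.3% of the step, ahead of PFKL with 30.5% to 44.1% and the muscle type PFKM with 10.4% to 17.6%. PFKM stood at 29.9, 36.7 and 31.3 FPKM in the controls and at 14.3, 25.1 and 28.9 FPKM with TP53TG1, lower without overlap before scaling and overlapping after it. ALDOA held 95.6% to 98.2% of ALDOA plus ALDOC. ALDOC, the brain type, stood at 36.6, 31.8 and 23.3 FPKM in the controls and at 25.3, 60.2 and 39.2 FPKM with TP53TG1. Its scaled log2 fold change was 0.76 (SE 0.262, unadjusted p = 0.0217, limma adjusted p = 1.0).

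ENO1 held 96.7% to 98.0% of the enolase FPKM, followed by the neuronal type ENO2 at 33.0 to 65.0 FPKM. Nearly all pyruvate kinase came from PKM, which is known for its splice forms and stood at 1373 to 2628 FPKM, and the liver gene PKLR did not exceed 0.03 FPKM. LDHA was the lesser lactate dehydrogenase gene, with 31.4% to 42.8% of the step against 57.2% to 68.6% for LDHB, the heart-type subunit. The share of LDHA averaged 35.1 ± 4.13% in the controls and 39.8 ± 3.48% with TP53TG1 (SD, n = 3 each), and control replicate 1 at 39.5% overlapped the TP53TG1 group, which began at 36.0%. LDHC was listed at 0 in all 6 libraries.

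**Figure D4:**
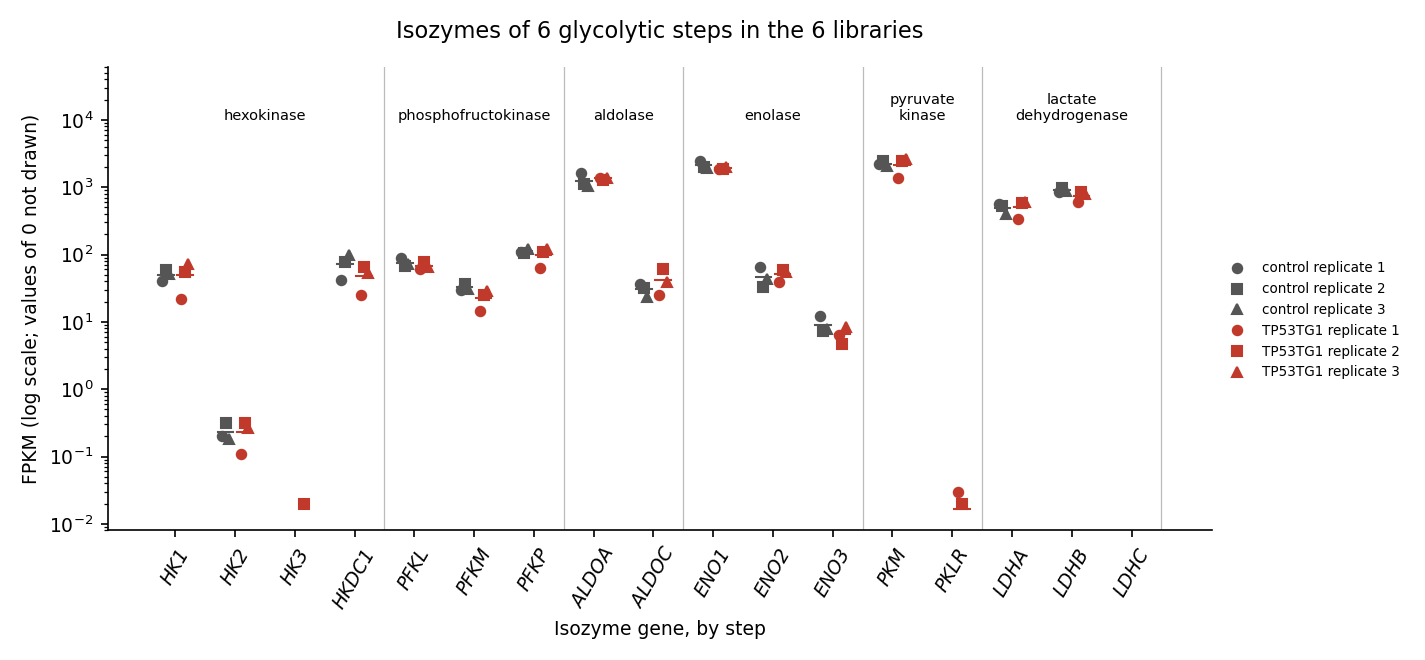
FPKM (vertical axis, log scale; values of 0 not drawn) of 17 isozyme genes of 6 glycolytic steps in the 3 control (grey) and 3 TP53TG1 (red) libraries, with bars for group means. HK1 and HKDC1, ALDOA, ENO1, PKM, and LDHA with LDHB are the highest of the genes plotted for their steps, and HK2 lies at 0.11 to 0.31 FPKM.

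The deposited values split each gene into annotated transcripts, and the split of some members differed between the libraries numbered 1 and the other 4 more than between the groups. In HK1 and ENO1 the difference was small: HK1-202 held 100% and 99.9% of HK1 in control and TP53TG1 replicate 1 and 97.9% to 99.8% in the other 4, and ENO1-201 held 99.2% and 99.6% of ENO1 against 98.4% to 98.7%. For LDHA, the longest coding form LDHA-205 (2416 nt) starts at 18394388, next to the upstream promoter stretch. It held 0.732%, 34.5% and 29% of the gene in control replicates 1, 2 and 3 and 11.9%, 54.3% and 49.4% in TP53TG1 replicates 1, 2 and 3. LDHA-203 (1922 nt), chosen after its values were seen, starts at 18396278, next to the downstream stretch that holds no CACGTG. It held 47.6%, 1.21% and 1.66% in the controls and 50.6%, 0.592% and 0.658% with TP53TG1. It was thus a main form in both libraries numbered 1 and a trace in the other 4. LDHA-206, the second form by mean, held 20.2% to 28.9% in every library.

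LDHA-205 had the highest mean of the LDHA forms. When the most abundant transcript stood for the gene, the log2 fold change of LDHA was therefore 1.73 (limma adjusted p = 0.809) in place of 0.01. Its FPKM were 4.07, 178 and 116 in the controls and 40.3, 315 and 296 with TP53TG1. Both libraries numbered 1 lay far below the other 4, and the groups overlapped.

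PGK1 showed the same division. PGK1-201, the full coding form of 4887 nt, held 32.5% to 49.4% of the gene in all libraries. PGK1-205, a processed transcript of 702 nt, held 28.9% and 16.8% in control and TP53TG1 replicate 1 and 47.0% to 53.5% in the other 4. PGK1-203, a processed transcript of 960 nt and 2 exons that was chosen after its values were seen, held 38.5% and 43.2% of PGK1 in both libraries numbered 1, against 1.22% to 3.56%. In PFKL, the retained-intron form PFKL-206 held 26.1% and 50.2% in those libraries and 2.62% to 8.11% elsewhere, while the coding form PFKL-201 held 67.1% and 45% against 81.3% to 89.7%. GPI-208, the leading form of GPI, held 63.7% and 73.4% in them and 44.6% to 52.1% elsewhere, and GPI-201 held 19.4% to 25.5% in every library. GPI-211, a short coding form of 571 nt also chosen after its values were seen, went the other way, with 4.28% and 0% in both libraries numbered 1 against 22.9% to 25.7%.

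ALDOA and GAPDH had several abundant forms. The retained-intron form ALDOA-214 of 801 nt held 43.3% and 58.5% in control and TP53TG1 replicate 1 and 29.4% to 33.7% elsewhere. ALDOA-219, a coding form of 1499 nt, held 11.8% and 5.18% in those libraries and 25.2% to 29.9% elsewhere. GAPDH-211, the shortest of its main forms at 1086 nt, held 43.6% and 56.7% there, against 40.0% to 42.0%. GAPDH-204 held 27.8% to 30.4% in all 6. PFKP-203 held 85.8% to 95.1% of PFKP and PFKP-201 3.59% to 12.5%. HK2-202 held 72.2% to 100% of HK2, and HK2-201 held the remainder, in control replicate 3 only. A split between overlapping transcripts is an estimate, and how the authors' tool shared fragments among them is not given in the sources used here.

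**Figure D5:**
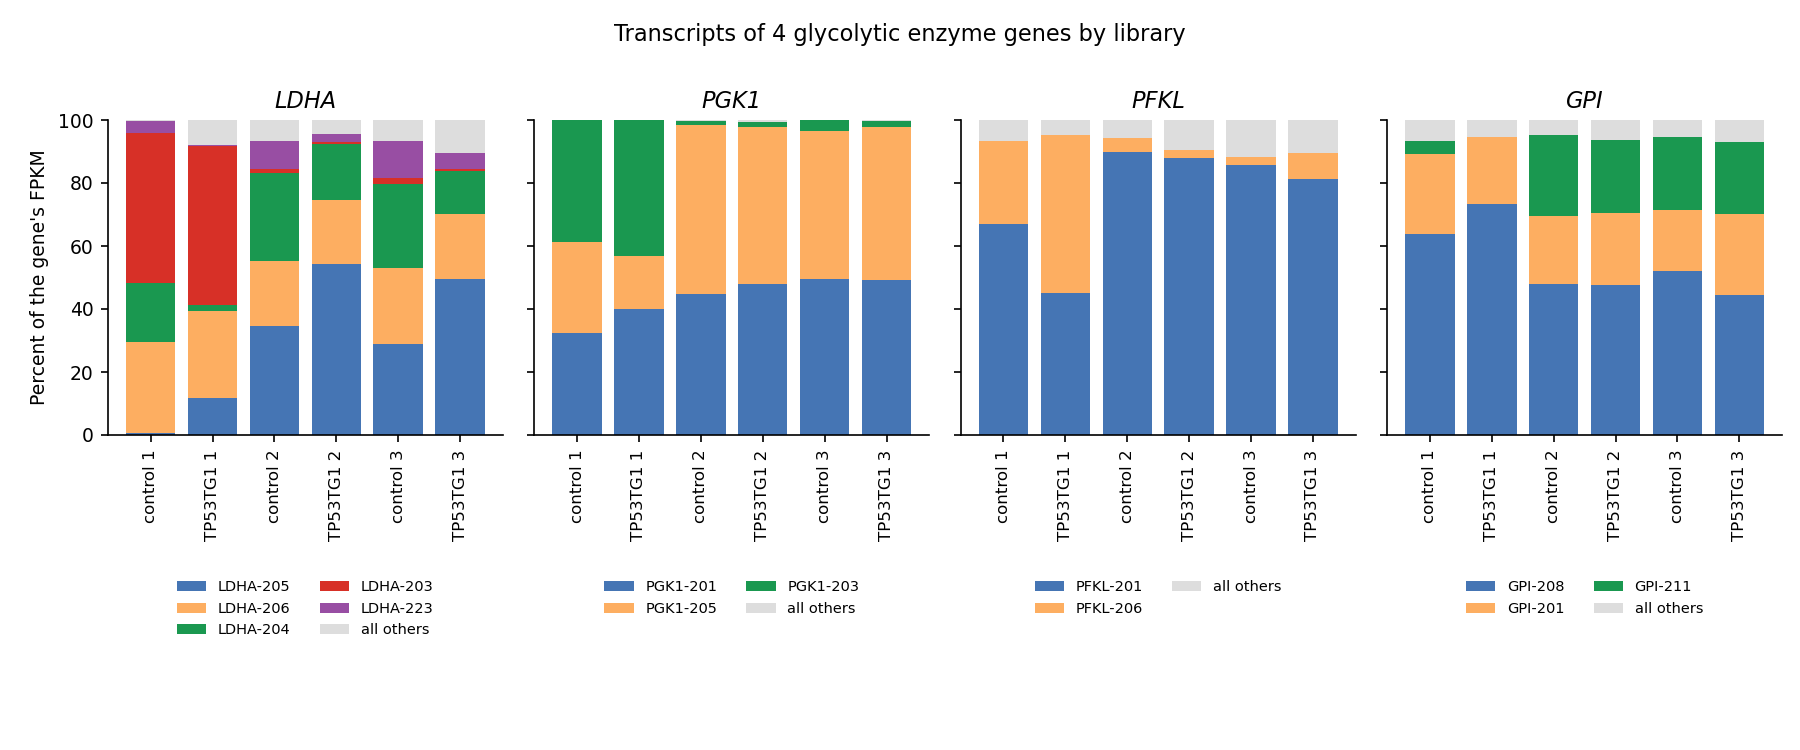
Percent of each gene's FPKM (vertical axis) held by its transcripts in the 6 libraries, ordered by replicate number, for LDHA, PGK1, PFKL and GPI; transcripts that reach 10% in any library are coloured and all others are grey. LDHA-203, PGK1-203 and PFKL-206 are large in both libraries numbered 1 and small in the other 4.

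The level of the libraries numbered 1 also differed from gene to gene. Set against the mean of replicates 2 and 3 of its own group, control replicate 1 stood at 1.67 for GAPDH, whose transcripts had a weighted mean length of 1249 nt, and at 1.53 for ALDOA (1142 nt). It stood at 0.722 for HK1 (3595 nt) and 0.816 for HK2 (5296 nt). In TP53TG1 replicate 1 the same ratios were 1.11, 1.01, 0.349 and 0.379. The members of shortest mean length thus stood highest in both libraries, and those of greatest length lowest. PGK1 (2558 nt) stood at 1.5 and 0.591, and PFKL (2714 nt) at 1.25 and 0.855. The part of transcript length in these values was not tested.

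The other steps of the pathway gave values like those of the members. TPI1, PGAM1 and PKM, the isomerase, mutase and pyruvate kinase genes, were all tested and 0 passed. PKM stood at 2173, 2413 and 2058 FPKM in the controls and at 1373, 2406 and 2628 FPKM with TP53TG1, and TPI1 ran from 1154 to 1625 FPKM. The log2 fold changes were -0.10 for PKM, -0.06 for PGAM1 and -0.03 for TPI1, and 0.30, 0.34 and 0.37 after scaling. For PKM the scaled groups did not overlap. Of 12 other isozyme genes, 6 were tested and 0 passed in either direction, with a median of -0.34, near the -0.35 of all genes.

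Transporters bring in glucose and carry out lactate. Of 11 such genes 6 were tested and 0 passed, with a median of -0.16, or 0.17 after scaling. SLC16A3, the lactate exporter MCT4, stood at 441, 272 and 275 FPKM in the controls and at 278, 403 and 451 FPKM with TP53TG1. Its log2 fold change was 0.20 (SE 0.297, limma adjusted p = 0.756), and 0.61 after scaling. The glucose transporter gene SLC2A1 (GLUT1) ran from 78.4 to 129 FPKM in the controls and from 72.5 to 155 FPKM with TP53TG1, whereas the liver transporter gene SLC2A2 (GLUT2) was listed at 0 in all 6 libraries. BSG, which encodes basigin, the partner of the lactate exporters, ran from 491 to 1006 FPKM, with a log2 fold change of -0.31 (SE 0.291, limma adjusted p = 0.748) and 0.09 after scaling. SLC16A1, the lactate transporter MCT1, had the smallest p of the list and the opposite sign to SLC16A3. It stood at 25.0, 32.6 and 40.0 FPKM in the controls and at 13.1, 28.7 and 25.2 FPKM with TP53TG1, with overlap. Its log2 fold change was -0.57 (SE 0.367, limma adjusted p = 0.748), -0.18 after scaling and -0.24 without TP53TG1 replicate 1.

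Of 16 regulators of glycolytic flux, 15 were tested and 0 passed, with a median of -0.13, or 0.17 after scaling. PFKFB3, which makes the activator of phosphofructokinase, stood at 27.2, 52.1 and 66.0 FPKM in the controls and at 11.0, 60.7 and 52.1 FPKM with TP53TG1. Both libraries numbered 1 were the lowest of their group. Its log2 fold change was -0.45 (SE 0.618, limma adjusted p = 0.751), and 0.30 without TP53TG1 replicate 1. PFKFB4 ran from 10.2 to 23.4 FPKM, ADPGK from 10.9 to 32.5 FPKM and PDK2 from 3.63 to 10.8 FPKM, with overlap for each. PGM1, which links glycogen to glycolysis, stood at 33.5, 28.3 and 24.0 FPKM and at 22.8, 38.9 and 34.5 FPKM, with a scaled log2 fold change of 0.53 (SE 0.222, unadjusted p = 0.0481, limma adjusted p = 1.0). PDK4, a kinase that inhibits pyruvate dehydrogenase, was low, at 1.49 to 2.59 FPKM in the controls and 0.55 to 1.47 FPKM with TP53TG1. Its groups did not overlap before scaling (limma adjusted p = 0.748). With the replicate block and scaling, 0 genes of these lists passed, where 0.0469% of all genes did. Their unadjusted p was under 0.05 for ALDOC (0.00613), PGM1 (0.0149), SLC16A3 (0.0154), PDK1 (0.0186), SLC2A1 (0.023), ENO2 (0.0247) and TPI1 (0.0358), with limma adjusted p from 0.766 for ALDOC to 0.896 for TPI1. These were 1 of 3 genes tested for the other steps, 2 of 6 other isozymes, 2 of 6 transporters and 2 of 15 regulators. Among all genes 5.29% had an unadjusted p under 0.05 in that fit.

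Near-identical copies could take fragments from some members. GAPDH has 62 named pseudogenes, of which 20 were above 0 in any library. The named pseudogenes of a member summed to at most 0.0828% of its FPKM, for LDHA, and 0.0477% for GAPDH, so the files assign almost nothing to them. Fragments from such copies that were counted in the parent gene cannot be told apart from its own. Among genes that overlap a member, ATP7A, on the strand of PGK1, reached 4.99 FPKM, and AC006064.4, antisense to GAPDH, 4.17 FPKM. ENO1-AS1, antisense to ENO1, reached 1.05 FPKM. Whether the libraries keep the strand is not given in the sources used here.

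After scaling, the members shared a profile over the 6 libraries to different degrees. Pearson's r of a member's scaled log2 values with the mean of the other tested members was highest for ALDOA at 0.937, followed by LDHA at 0.843 and ENO1 at 0.811, and lowest for HK1 at -0.231. Among 6442 tested genes outside the glycolysis lists with a mean of at least 10 FPKM, the 5 most like the members' mean were CYB5A (cytochrome b5, r = 0.997), SEC61G (a subunit of the protein translocon, 0.989), USP15 (a deubiquitinase, 0.986), TMEM132A (0.984) and RRBP1 (a ribosome-binding protein, 0.981). CYB5A stood at 50.1, 36.4 and 33.1 FPKM in the controls and at 37.0, 43.6 and 48.2 FPKM with TP53TG1. These r rest on 6 libraries that share replicate numbers and scaling factors, and are the extremes of many candidates.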

How the data were processed

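RNA was sequenced in 6 libraries, 3 per group. RNA was extracted with TRIzol, treated with DNase I and made into libraries with an Illumina TruSeq kit, per the labels' protocols. The submitters' processing notes name HISAT2 (an aligner), StringTie (a transcript quantifier) and the build GRCh38.p10. Tool versions, settings and annotation were not given in the sources used here. Each table deposited by the authors gives 1 value per transcript for 199234 transcripts, with no unit in its header. The deposited values were taken as FPKM, since they are not whole and their totals differ between libraries, where TPM would not differ. Coverage per base, which StringTie also writes, was not tested as an alternative unit. FPKM do not correct for a few RNAs that take a large share of a library.

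Transcripts were added per gene, and symbols blank in up to 88000 rows were filled by transcript ID. Coordinates, types and lengths came from GENCODE release 29 (99.8% of transcripts matched). Genes averaging at least 1 FPKM over the 6 libraries entered the test on log2(FPKM + 1), which understates the change of low genes, with limma 3.58.1 (lmFit, eBayes with trend) in R 4.3.3 and Benjamini-Hochberg adjustment over all of them. Single shares and genes were tested with exact two-sided permutation tests in Python 3.11.15 with scipy 1.17.1. The fit was tested on simulated data. A few isozyme genes are not reported here. Alternatives were other scalings, pseudocounts, filters, transcript choices, a replicate block and libraries left out. The closing part gives their effect.

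All members and TP53TG1 were named. Of each other list, named genes were up to 4 with the highest mean FPKM and up to 2 with the smallest p. HK3, PKLR, LDHC, SLC2A2, PDK1, G6PC, PCK1 and FBP1 fall outside that rule and were named after their values were seen. Of transcripts, the most abundant was named, and the second where it held at least 10% in any library. The members, lists and tests were chosen with earlier results of these data known.

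The labels number each group's libraries 1 to 3 and do not say what a number shares. Over genes, deviations from the group means of same-numbered libraries correlated at 0.710, 0.562 and 0.289, above the limit of 0.1 for taking them as pairs. Libraries of unlike number reached 0.400 (control 3 with TP53TG1 2) and 0.302 (control 2 with TP53TG1 3). Both are above that limit and above the 0.289 of the libraries numbered 3. The limit thus does not settle which libraries are pairs, and the pairing by number remains an assumption. Blocked values are given where they bear on a member or a named gene.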

Additional observations from a re-analysis of the deposited data

How the results depend on the processing

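No glycolytic enzyme gene passed in the unscaled fit of all 6 libraries or under any of the 16 alternatives (lowest limma adjusted p 0.610), with the replicate block or without it. TP53TG1 itself, at a ratio of means of 12.5, missed the threshold in the unscaled fit without a block (limma adjusted p = 0.0573). It passed with scaling (limma adjusted p = 0.039), with the block (limma adjusted p = 8.97e-22) and with both (limma adjusted p = 0.00932). The p from the unscaled block rests on a variance set by the trend over genes, not on the spread of TP53TG1 itself. The lack of calls among the members is no sign of stability. The direction did change, and the cause was not tested. Over 23 genes and 16 alternatives, 292 of 368 log2 fold changes kept the direction of that fit and 76 did not. With median-of-ratios scaling, alone or with the replicate block, the log2 fold changes turned to HK1 0.23, GPI 0.28, PFKL 0.24, PFKP 0.16, GAPDH 0.29, PGK1 0.25, ENO1 0.26, TPI1 0.37, PGAM1 0.34, PKM 0.30, LDHB 0.13 and BSG 0.090. With rescaling to the same total they turned to HK1 0.094, GPI 0.14, PFKL 0.11, PFKP 0.023, GAPDH 0.15, PGK1 0.12, ENO1 0.12, TPI1 0.23, PGAM1 0.20 and PKM 0.16. Without both libraries numbered 1 they turned to HK1 0.17, GPI 0.14, PFKL 0.021, PFKP 0.038, GAPDH 0.078, PGK1 0.30, TPI1 0.15, PGAM1 0.40 and PKM 0.17. With scaling and without those libraries, an alternative chosen after seeing the data, they turned to HK1 0.35, GPI 0.32, PFKL 0.20, PFKP 0.22, GAPDH 0.26, PGK1 0.48, ENO1 0.16, TPI1 0.34, PGAM1 0.58, PKM 0.36, LDHB 0.016, PFKFB3 0.12 and PDHA1 0.10. With the most abundant transcript only, SLC2A1 turned to -0.13.

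Leaving out 1 library at a time gave ranges that crossed 0: HK1 -0.51 to 0.32, GPI -0.27 to 0.15, PFKP -0.42 to 0.049, GAPDH -0.26 to 0.13, PGK1 -0.34 to 0.10, LDHA -0.13 to 0.28, TPI1 -0.14 to 0.11, PGAM1 -0.31 to 0.25, PKM -0.28 to 0.19, SLC2A1 -0.16 to 0.38, PFKFB3 -0.88 to 0.30 and PGM1 -0.014 to 0.36. ALDOA stayed above 0 in all 16 alternatives, from 0.01 to 0.54. These alternatives reuse the same libraries, and the lowest value, without control replicate 3, had an SE of 0.303. The share of PFKP in PFKP plus PFKL, TP53TG1 minus control, turned from -1.49 to 1.77 percentage points with the most abundant transcript and 0.235 without the libraries numbered 1, and ran from -4.80 to 2.21 with 1 library left out. That of HK2 in HK1 plus HK2 ran from -0.0253 to 0.0786.

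The median of the 9 members was 0.26 with scaling, alone or with the block, and 0.32 with scaling and without the libraries numbered 1. All 9 lay above the median of all genes in the unscaled fit, and exceptions were 8 of 9 without control replicate 3, without TP53TG1 replicate 3 and with the most abundant transcript, 7 without TP53TG1 replicate 1, and 5 of 10 with no filter. The 1 gene called over all genes became 2 with scaling, 2 at a mean of at least 5 FPKM, 0 with no filter (827 at an unadjusted p under 0.05), 192 with the replicate block, 6 with block and scaling, 10 with scaling and without the libraries numbered 1, and 0 to 1 with 1 library left out. The depth behind the values is unknown, so the limit it sets could not be given.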

Other observations

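Genes that carry pyruvate into the mitochondrion or convert it there lay near the level of all genes. Of 7 such genes all were tested and 0 passed by limma (0 with an unadjusted p under 0.05), with a median log2 fold change of -0.38, or -0.01 after median-of-ratios scaling. PDHA1, a subunit of pyruvate dehydrogenase, stood at 99.2, 80.9 and 72.6 FPKM in the controls and at 42.7, 78.0 and 67.5 FPKM with TP53TG1 (limma adjusted p = 0.748). DLD, the shared dehydrogenase subunit, was lowest in both libraries numbered 1, at 44.5 and 21.8 FPKM, against 111 to 154 FPKM in the other 4. MPC2, a subunit of the mitochondrial pyruvate carrier, ran from 21.4 to 40.3 FPKM, and PDHB, another dehydrogenase subunit, from 30.4 to 61.2 FPKM.

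Genes of gluconeogenesis, the reverse pathway of liver, fell into 4 that were tested and 4 that averaged under 1 FPKM. G6PC, the liver glucose-6-phosphatase gene, was listed at 0 in all 6 libraries, PCK1 did not exceed 0.01 FPKM and FBP1 ran from 0.51 to 1.37 FPKM. Of 8 such genes 4 were tested and 0 passed by limma (0 with an unadjusted p under 0.05). PCK2, the mitochondrial phosphoenolpyruvate carboxykinase gene, stood at 144, 118 and 149.5 FPKM in the controls and at 107, 117.5 and 47.0 FPKM with TP53TG1. The unscaled groups did not overlap, and the scaled ones did. Its log2 fold change was -0.69 (SE 0.366, limma adjusted p = 0.748), -0.29 after scaling and -0.28 without TP53TG1 replicate 3. With the replicate block and no scaling its unadjusted p was 0.0225 (limma adjusted p = 0.361). That p rests on the variance trend over genes, not on PCK2's own spread. The ubiquitous phosphatase gene G6PC3 ran from 41.3 to 90.4 FPKM, the pyruvate carboxylase gene PC from 12.4 to 21.1 FPKM and the glucose-6-phosphate transporter gene SLC37A4 from 9.05 to 17.1 FPKM.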
